A study of Rattus norvegicus with 6 samples.

Results

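Small-RNA probes on the array, 11 for mammalian microRNAs (miRNAs) and 12 that tile accession K00784, were followed across pancreatic islets of diabetic and control rats. They were taken by name from the non-control probes of the scanner files and make up 23 of 39886 such probes. The 6 arrays carried islet total RNA of Goto-Kakizaki (GK) rats (n = 3) and Wistar rats (n = 3), all aged 3 months. GK rats are a lean inbred strain derived from Wistar stock that serves as a model of type 2 diabetes, and Wistar rats are the control strain. No treatment is named in the labels for either strain, and the RNA of each sample was extracted on its own. The p-values below measure the spread between these 6 samples. RNA was labelled with Cy3 at its 3′ end by RNA ligase, and each of the 23 probes was printed as 10 spots per array.

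A miRNA is cut from a hairpin precursor and guides an Argonaute protein to messenger RNAs, mainly through its seed, the bases at positions 2 to 8. In islets, miRNAs are known to take part in beta-cell development and in the control of insulin secretion. None of the miRNAs listed as markers of endocrine, acinar, endothelial, stromal or blood cells has a probe here, and the cell makeup of the preparations could not be read from these 23 probes. In bulk RNA, fewer cells of a type and less of an RNA per cell cannot be told apart. The files give K00784 no other name or function, and the number of a tile is the only record of its place used here.

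Of the 11 miRNA probes, 9 carry mouse names, 1 a rat name (rno-miR-742) and 1 a cattle name (bta-miR-425-3p). The letters of the probes are not used here. Rat RefSeq entries (build GRCr8) with the same number, and the same arm where the probe names one, were found for 4 of the 11. They are shown because they include the rat counterparts of mmu-miR-770-3p and mmu-miR-540-3p, whose probes were detected on every array. The rat sequences follow, 5′ to 3′, with the seed in capitals.
rno-miR-770-3p: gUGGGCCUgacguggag
rno-miR-540-3p: aGGUCAGAggucgauccugggc
rno-miR-425-3p: aUCGGGAAuaucguguccgcc
rno-miR-742-3p: gAAAGCCAccauguuggguaaa
rno-miR-742-5p: uACUCACAugguugcuaauca
The probe named rno-miR-742 gives no arm, so both arms are shown. These 5 sequences hold 5 different seeds, and no other rat mature miRNA among the 693 in the table shares any of them.

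In build GRCr8, rno-miR-770-3p lies on the plus strand at chr6:134298129-134298145, inside the long noncoding RNA gene Meg3. rno-miR-540-3p lies on the same strand at chr6:134321475-134321496. Meg3 belongs to the imprinted Dlk1-Meg3 region, which is transcribed into noncoding RNAs and miRNAs from the maternal chromosome. As background, miRNAs of the corresponding human region have been described as lower in islets of donors with type 2 diabetes. rno-miR-425-3p lies at chr8:118143135-118143155 on the plus strand, inside Dalrd3, a protein-coding gene. rno-miR-742-3p and rno-miR-742-5p lie on the minus strand of the X chromosome, at chrX:150451582-150451603 and chrX:150451618-150451638. The rat Mir770 hairpin is printed here with the 3p arm, the one the probe is named for, in capitals.
Mir770 hairpin: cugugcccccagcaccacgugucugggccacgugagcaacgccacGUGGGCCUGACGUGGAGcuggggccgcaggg
The hairpin lies at chr6:134298084-134298159. mmu-miR-681, mmu-miR-693-3p, mmu-miR-700, mmu-miR-701, mmu-miR-714, mmu-miR-804 and mmu-miR-1195 are named only.

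Signals are Feature Extraction's processed intensities in scanner units, averaged over the spots of a probe that carried no outlier flag. Probes bind with different strength, so the signals of different probes do not order the amounts of their RNAs. A probe was called detected on an array when at least 5 of its 10 spots were well above background. The piRNA probes, which make up most of the array, had 1 spot each, and that spot decided their call. The array's 153 negative control spots give the background: no single spot of them was well above background on any GK array, Wistar 2 or Wistar 3, and 1 was on Wistar 1. Their median signals were 2.10, 2.62 and 1.86 on GK 1, GK 2 and GK 3, and 2.94, 2.02 and 1.77 on Wistar 1, Wistar 2 and Wistar 3. The median over all probes was 3.11, 7.87 and 2.43 on the GK arrays and 3.42, 2.61 and 2.87 on the Wistar arrays, with GK 2 apart from the others. Slides were inferred from the scan times in the file headers, and arrays with the same time were taken to share a slide. By that grouping GK 1 was on the same slide (slide 1) as all 3 Wistar arrays, and GK 2 and GK 3 were on another (slide 2).

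Few of the 23 probes gave a signal above background. On all 6 arrays 3 of 11 miRNA probes (27.3%) and 1 of 12 K00784 tiles (8.33%) were detected. On no array were 5 of the miRNA probes and 9 of the tiles detected. Detection on all 6 arrays held for 19.4% of 39727 piRNA probes, 67.0% of 88 rat transcript probes and 29.6% of 27 probes named for worm, plant or virus miRNAs. In that order, 21267, 16 and 17 probes were detected on no array. The mammalian miRNA probes were thus detected on all arrays about as often as probes named for worm, plant or virus miRNAs. This comparison of small counts was not tested, and rat counterparts of those miRNAs were not looked up. For 7 of the 11 mammalian names no rat entry was found, and the always detected mmu-miR-700 is among them. Whether a detected signal comes from the named miRNA was not tested. By array, GK 1, GK 2 and GK 3 had 4, 4 and 5 detected miRNA probes, against 3, 4 and 5 on Wistar 1, Wistar 2 and Wistar 3. For the tiles the counts were 2, 2 and 1 on the GK arrays and 1, 2 and 2 on the Wistar arrays. Both strains span nearly the same counts in each class.

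mmu-miR-770-3p was detected on every array. It read 75.3, 61.1 and 51.4 on GK 1, GK 2 and GK 3, and 77.7, 93.1 and 102 on Wistar 1, Wistar 2 and Wistar 3. Every spot was well above background on every array, and the coefficient of variation over the spots of an array was 4.33% to 8.36%. Before scaling between arrays every GK value lay below every Wistar value, with means of 62.6 ± 12.02 in GK and 90.8 ± 12.1 in Wistar islets (SD, n = 3 each). Unscaled signals were separated in that direction for 13.2% of 11358 tested probes with values on all arrays, and upward in GK for 3.13%. Among the 23 probes only rno-miR-742 was separated too, downward and with no detection, and none was separated upward. With no detection rno-miR-742 is outside the tested probes that give those shares. After each array was scaled by its 75th percentile over probes detected on all arrays, the log2 values were -1.41, -1.31 and -1.46 on the GK arrays and -1.62, -1.08 and -0.99 on the Wistar arrays. The groups then overlapped, since Wistar 1 fell below all 3 GK arrays.

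mmu-miR-540-3p, the other miRNA with a rat counterpart near Meg3, was also well above background in every spot. Its signal was 16.9, 24.5 and 18.4 on GK 1, GK 2 and GK 3, against 27.8, 22.2 and 20.8 on Wistar 1, Wistar 2 and Wistar 3. The lowest 2 arrays were GK 1 and GK 3 and the highest was Wistar 1, but GK 2 exceeded 2 of the Wistar arrays. The spot variation was 11.8% to 14.8% on the GK arrays and 4.46% to 15.3% on the Wistar arrays. The groups overlapped before and after scaling.

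mmu-miR-700 was well above background in every spot as well, at 34.0, 26.2 and 24.0 on GK 1, GK 2 and GK 3 and at 43.9, 35.7 and 18.7 on Wistar 1, Wistar 2 and Wistar 3. Wistar 3 was the lowest array of all. Scaled log2 values were almost identical on the GK arrays (-2.55 ± 0.019, SD, n = 3) and spread more widely on the Wistar arrays (-2.78 ± 0.57, SD, n = 3), where Wistar 3 stood at -3.43 and Wistar 1 and Wistar 2 at -2.44 and -2.46.

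The spots behind those values were far from even on the GK arrays. Over the spots of mmu-miR-700 the coefficient of variation was 24.6%, 29.9% and 28.1% on GK 1, GK 2 and GK 3, against 6.24%, 9.81% and 7.69% on Wistar 1, Wistar 2 and Wistar 3. Outside the 23, another 70 probes had 10 spots and were detected on all arrays, and their median variation was similar on every array, at 8.43%, 9.94% and 9.26% on the GK arrays and 9.19%, 8.04% and 7.50% on the Wistar arrays. At or above the variation of mmu-miR-700 were 2, 1 and 0 of these 70 probes on the GK arrays, and 55, 29 and 32 on the Wistar arrays. The signal of mmu-miR-700 differed with grid position on some arrays. On GK 2 the 7 spots in rows up to 266 averaged 21.7 and the 3 spots below averaged 36.7, whereas the same 2 means were 44.0 and 43.7 on Wistar 1. On GK 1 they were 32.3 and 37.9 and on GK 3 22.3 and 27.3, against 34.3 and 40.5 on Wistar 2 and 19.4 and 17.2 on Wistar 3. The lower spots were thus brighter on all 3 GK arrays and on Wistar 2, whose spots varied by 9.81% only. On GK 2 the means of the upper and lower spots were 58.9 and 62.2 for mmu-miR-770-3p, and 8.70 and 5.38 for tile 6. The part of grid position in the mmu-miR-700 values was not tested.

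mmu-miR-714 sat at the edge of detection. It read 10.02, 13.98 and 10.5 on GK 1, GK 2 and GK 3, and 11.9, 12.2 and 9.003 on Wistar 1, Wistar 2 and Wistar 3. On each GK array 6 of its 10 spots were well above background, against 2, 9 and 5 on the Wistar arrays, so it was called on all arrays except Wistar 1. The unscaled signal on Wistar 1 lay within the range of the other arrays. Relative to the negative control median of its array it was the lowest, at 4.04 times against 4.77 to 6.05 times. The lowest signal of any detected probe was 13.4 on Wistar 1, against 8.07 to 10.6 on the GK arrays and 8.07 to 9.25 on Wistar 3 and Wistar 2.

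mmu-miR-701 and mmu-miR-681 were each detected on 1 array. mmu-miR-701 read 8.47, 2.77 and 3.08 on GK 1, GK 2 and GK 3, against 5.27, 7.74 and 8.66 on Wistar 1, Wistar 2 and Wistar 3. Only Wistar 3 met the call, with exactly 5 of 10 spots, and the 2 lowest signals were those of slide 2. mmu-miR-681 went the other way, at 3.93, 9.67 and 11.1 on GK 1, GK 2 and GK 3 and at 4.33, 2.87 and 3.87 on Wistar 1, Wistar 2 and Wistar 3. Its call rested on 9 of 10 spots on GK 3, while 0 of 10 met it on GK 2, where the lowest signal of a detected probe was 10.6. After scaling, mmu-miR-681 was the only one of the 23 probes whose GK and Wistar values did not overlap, a separation upward in GK that 12.5% of the 11358 tested probes showed. None of the 23 was separated downward in GK on that scale, against 5.19% of those probes. Both shares are over probes detected on at least 3 arrays, which most of the 23 were not. Neither mmu-miR-701 nor mmu-miR-681 reached the 3 arrays needed for testing, and no bound on a fold above 1 could be given. On the log2 scale mmu-miR-681 was 0.20 above the Wistar mean on GK 1 and 2.05 above it on GK 2 and GK 3. For mmu-miR-701 the values relative to that mean were 0.35 on GK 1 and -0.74 on GK 2 and GK 3. Slide 2 holds GK 2 and GK 3 only, so strain and slide cannot be told apart for either probe.

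The remaining 5 miRNA probes, rno-miR-742, bta-miR-425-3p, mmu-miR-693-3p, mmu-miR-804 and mmu-miR-1195, were detected on no array. Their signals ran from 1.87 to 12.04 on the GK arrays and from 1.79 to 3.67 on the Wistar arrays. The GK maximum belongs to bta-miR-425-3p, which read 2.36, 12.04 and 2.49 on GK 1, GK 2 and GK 3, and 2.96, 2.04 and 1.85 on Wistar 1, Wistar 2 and Wistar 3. On GK 2, 4 of its 10 spots were well above background, just short of the call. rno-miR-742, the only probe with a rat name, read 2.37, 2.59 and 2.11 on the GK arrays and 3.15, 2.93 and 3.36 on the Wistar arrays. These signals lie near those of the negative controls, so no level was established for that miRNA. The other three, mmu-miR-693-3p, mmu-miR-804 and mmu-miR-1195, stayed at 1.87 to 4.42 on the GK arrays and 1.79 to 3.67 on the Wistar arrays.

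K00784 was tiled by 12 probes, and signal was limited to few of them. In order along the tile numbers, tiles 1 to 5 were detected on no array, tile 6 on 3 arrays, tile 7 on 1, tiles 8 to 11 on none and tile 12 on all 6. Tiles 6 and 12, with 5 tiles between them, thus carried 9 of the 10 detections. The probes tile one RNA and are not replicates of each other.

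Tile 12 was the steadier of the pair. Its signal was 25.7, 27.6 and 15.6 on GK 1, GK 2 and GK 3, against 31.3, 25.4 and 21.2 on Wistar 1, Wistar 2 and Wistar 3. GK 3 was lowest and Wistar 1 highest, and the highest signal was 2.00 times the lowest. All of its spots were well above background on each array.

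Tile 6 varied far more between arrays. It read 22.3, 6.71 and 7.46 on GK 1, GK 2 and GK 3, and 9.79, 22.4 and 45.2 on Wistar 1, Wistar 2 and Wistar 3. All 10 spots were well above background on GK 1, Wistar 2 and Wistar 3, while 0, 2 and 1 were on GK 2, GK 3 and Wistar 1. The highest array exceeded the lowest 6.74-fold, and neither extreme belonged to a whole strain, since Wistar 1 sat with GK 2 and GK 3. On Wistar 3, where the signal was strongest, the spots varied by 5.95%.

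The 9 tiles without a detection read 1.81 to 12.2 on the GK arrays and 1.75 to 5.13 on the Wistar arrays. On 6 of these 9 the highest array was GK 2. Tiles 1, 4, 5, 8 and 11 stayed lowest, at 1.81 to 3.40 on the GK arrays and 1.75 to 3.68 on the Wistar arrays. Tile 2 read 2.08, 6.71 and 2.59 on GK 1, GK 2 and GK 3, and 3.15, 1.95 and 1.76 on Wistar 1, Wistar 2 and Wistar 3. Tile 9 read 2.14, 7.52 and 2.82 on the GK arrays and 3.00, 2.15 and 2.58 on the Wistar arrays. In both, one array stood apart and the other five were near the negative controls. Tile 10 read 3.95, 8.03 and 3.85 on the GK arrays and 5.13, 2.96 and 3.95 on the Wistar arrays, above the negative control median on each array but with no detection. Tile 3 reached 12.2 on GK 2, where 4 of 10 spots met the call, against 2.22 and 2.57 on GK 1 and GK 3 and 2.22 to 2.96 on the Wistar arrays. Tile 7 read 13.7 on GK 2, with 7 of 10 spots well above background, against 2.29 and 2.86 on GK 1 and GK 3 and 1.99 to 3.45 on the Wistar arrays. GK 2 also had the highest median over all probes, 7.87, whereas its negative controls had a median of 2.62, below the 2.94 of Wistar 1. The part of the higher general level of GK 2 in the tile values was not tested. Without GK 2, no tile other than tiles 6 and 12 was detected on any array.

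The strain comparison asked which of these probes differ in signal between GK and Wistar islets. Of the 23 probes, 6 were detected on at least 3 arrays and were tested together with all other such probes, 11407 in all, by limma on scaled log2 signals. Nearly all of the 11407 were piRNA probes with 1 spot each, against 10 for the 6. None of the 4 miRNA probes and none of the 2 tiles passed a Benjamini-Hochberg adjusted p of 0.05, and none had an unadjusted p under 0.05. Of all tested probes 0.0438% passed the adjusted threshold, and 10.8% had an unadjusted p under 0.05. At an unadjusted p under 0.05 with a fold of at least 1.5 the share was 10.7%, again with none of the 6.

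The measured differences were small, except for tile 6. mmu-miR-770-3p differed by -0.16 on the log2 scale in GK relative to Wistar islets (SE 0.26, 95% interval -0.77 to 0.45, adjusted p = 0.783 in limma). For mmu-miR-540-3p the log2 difference was 0.13 (SE 0.30, interval -0.57 to 0.83, limma adjusted p = 0.855). For mmu-miR-700 it was 0.23 (SE 0.32, interval -0.53 to 0.99, limma adjusted p = 0.749). For these 3 miRNAs the intervals leave room for a change of up to nearly 2-fold in at least one direction, so a p above the threshold does not show equal levels.

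At the margin of detection, mmu-miR-714 had a log2 difference of 0.44 (SE 0.30, interval -0.28 to 1.16, limma adjusted p = 0.531). With 1 array left out, its estimate lay between 0.22 without GK 2 and 0.68 without GK 1, but quantile normalization turned it to -0.14. Among the tiles, tile 12 differed by 0.18 (SE 0.28, interval -0.47 to 0.84, limma adjusted p = 0.771). Tile 6 had the largest estimate of the 6, -0.67, and the widest interval, from -2.20 to 0.86 (SE 0.65, limma adjusted p = 0.647). The 3 arrays on which tile 6 was not detected include Wistar 1, GK 2 and GK 3, so its estimate rests in part on signals not well above background. Without Wistar 1 it was -1.35, with an unadjusted p of 0.0334 (limma adjusted p of 0.497 or more over all settings).

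The median log2 difference over all tested probes was 0.17 with this scaling, -0.10 with quantile normalization and -0.31 with the percentile taken over all probes. Relative to the median of 0.17, the differences were -0.33 for mmu-miR-770-3p, -0.037 for mmu-miR-540-3p, 0.066 for mmu-miR-700 and 0.28 for mmu-miR-714. On the same footing they were -0.83 for tile 6 and 0.016 for tile 12. The sign of the differences of mmu-miR-540-3p, mmu-miR-700, mmu-miR-714 and tile 12 turned negative with quantile normalization, so none of these has a settled direction. mmu-miR-770-3p stayed negative under all 21 alternatives tried, between -0.64 and -0.065, and passed the threshold under none (limma adjusted p of 0.490 or more). These refits share the same arrays, and its main interval of -0.77 to 0.45 holds both directions, so its direction is not settled either.

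Set out by slide, the members fell into different patterns. The log2 difference of GK 1 from the mean of the Wistar arrays beside it was -0.18 for mmu-miR-770-3p, and that of GK 2 and GK 3 from the same mean was -0.15. mmu-miR-700 likewise gave 0.23 on GK 1 and 0.24 on GK 2 and GK 3, and tile 12 gave 0.089 and 0.23. In contrast mmu-miR-540-3p stood at -0.39 on GK 1 and at 0.39 on GK 2 and GK 3. mmu-miR-714 gave -0.039 on GK 1 and 0.68 on GK 2 and GK 3. For tile 6 the values were 0.14 on GK 1 and -1.07 on GK 2 and GK 3. Slide 2 holds GK arrays only, so there strain and slide cannot be told apart, and blocking on slide leaves GK 1 as the sole GK array set against the Wistar arrays. None of the 6 passed in that fit (limma adjusted p = 1.00 for each after rounding).

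Without the filter on dim probes all 23 entered the fit, and none passed there either. Of the miRNA probes 8 of 11 and of the tiles 11 of 12 had a positive estimate, against 80.7% of all 39885 probes fitted. The median log2 difference was 0.33 over the miRNA probes and 0.44 over the tiles, beside 0.40 over all probes. Most of these values come from signals not well above background, and GK 2 had the highest median over all probes. In that fit mmu-miR-681 had the only unadjusted p under 0.05 among the 23, with a log2 difference of 1.43 (SE 0.55, limma adjusted p = 0.569).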

How the data were processed

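Per the file headers, Agilent Feature Extraction 11.0.1.1 quantified the 6 one-colour arrays, and the deposited processed signal is an intensity from which each array's own background was subtracted. No scaling across arrays had been applied. The deposited flags (other values) mark outlier spots and spots well above background. The authors' tables of piRNA probes were not used here.

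Spots with a feature outlier flag were left out and the others averaged. Log2 values were scaled by each array's 75th percentile over the 7795 probes detected on all arrays. Probes detected on at least 3 arrays, 11407 in all, were fitted with lmFit and eBayes (limma 3.58.1, R 4.3.3), strain being the only term, with Benjamini-Hochberg adjustment over all of them. The fit was tested on simulated data with added changes far larger than the differences measured here and no slide effect. That test does not bear on small differences. The text names all 23 probes. Members and lists were chosen with earlier results of these data known. No spot was saturated, and precision is limited by having 3 arrays a strain. miRNA sequences are from RefSeq, build GRCr8. Alternatives covered scaling, background correction, spot summaries, filters, slide, replicate number and left-out arrays.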

Additional observations from a re-analysis of the deposited data

How the results depend on the processing

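In 121 refits of the 6 tested probes, over 21 alternatives, none passed the adjusted threshold, and 24 changed the sign of a difference. The all-probe percentile and no scaling move every probe by a constant, -0.48 and -0.38 on the log2 scale, which fixes their 7 sign changes. The cause of the others was not tested. With the 75th percentile of every non-control probe the log2 differences (GK minus Wistar) turned to -0.35 for mmu-miR-540-3p, -0.25 for mmu-miR-700, -0.039 for mmu-miR-714 and -0.30 for tile 12. With quantile normalization they were -0.24, -0.11, -0.14 and -0.15 in that order, and with normexp and quantile normalization -0.081, -0.044, -0.017 and -0.036. With no scaling mmu-miR-540-3p, mmu-miR-700 and tile 12 stood at -0.25, -0.15 and -0.20. With the slide as a fixed block, and equally within slide 1 alone, mmu-miR-540-3p stood at -0.39, mmu-miR-714 at -0.039 and tile 6 at 0.14. Leaving out 1 array at a time gave -0.10 to 0.38 for mmu-miR-540-3p (lowest without GK 2), -0.12 to 0.39 for mmu-miR-700 (lowest without Wistar 3), -0.048 to 0.33 for tile 12 (lowest without GK 2), 0.22 to 0.68 for mmu-miR-714 (lowest without GK 2, highest without GK 1) and -1.35 to -0.43 for tile 6 (lowest without Wistar 1, on 3 fits only). At an unadjusted p, mmu-miR-714 reached 0.0441 without GK 1 in limma and tile 6 reached 0.0334 without Wistar 1.

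Over all tested probes 5 passed the adjusted threshold. The count was 2 among probes detected on all arrays, 14 with the all-probe percentile, 8 when flagged spots were kept, 8 when eBayes used a trend and robust fit, and 1 when spots with background outlier flags were left out too, a setting chosen after seeing the data. It was 0 in limma without the filter (2512 at an unadjusted p under 0.05), with quantile normalization (1004), with normexp (1324), with the slide as a fixed block (409), within slide 1 (389) and in the fit blocked on replicate number (1273). With the slide as a random block it was 4 (878 at an unadjusted p under 0.05). Leaving out 1 array gave 0 to 14 (14 without GK 1). The looser count, 1220, was 2512 without the filter, 378 with normexp, 409 with the slide as a fixed block, 869 with it as a random block, 389 within slide 1 and 522 to 2410 without 1 array (2410 without GK 1, 522 without GK 2, 606 without GK 3 and 711 without Wistar 2). Its split of 904 higher and 316 lower turned to 394 and 603 after quantile normalization, 167 and 1097 with the all-probe percentile and 235 and 1020 without scaling. The replicate numbers did not pair the arrays (correlations of their deviations -0.026, 0.039 and 0.039), and with the replicate block none of the 6 passed. The detection call already counts flagged spots. Of the miRNA probes 3 to 4 were detected on all arrays over the alternatives, 4 without Wistar 1, and of the tiles 1. Signal over background limits the 17 probes that could not be tested.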
